A study of Arabidopsis thaliana with 15 samples.

Results

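Genes that Arabidopsis leaves switch on soon after being touched or chilled were read in leaf RNA of plants that lack DNA demethylases. The 10 genes were the cold regulators CBF1 (AT4G25490), CBF2 (AT4G25470) and CBF3 (AT4G25480), the zinc finger factors ZAT10 (AT1G27730) and ZAT12 (AT5G59820), the ethylene response factors ERF5 (AT5G47230) and ERF6 (AT4G17490), the WRKY factor WRKY40 (AT1G80840), and the touch genes TCH2 (AT5G37770) and TCH4 (AT5G57560). They were chosen with earlier results of these data known, so their shares beside those of all tested genes are descriptions. Taken by their locus identifiers, they are 10 of the 37336 genes counted. All 10 were among the 18598 genes that passed the filter on low counts. CBF3, ZAT10 and ZAT12 are also known as DREB1A, STZ and RHL41.

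A touch, a wound or a drop in temperature lets calcium into plant cells. Calmodulins and related calcium sensors carry that signal on, and transcription factors already present in the cell then start the transcription of a short-lived first set of genes. The CBF factors of that set bind a short element in the promoters of cold response genes such as the COR genes and raise their transcription, and CAMTA factors, which bind calmodulin and a CGCG core in DNA, are among the activators of CBF2. The ZAT, ERF and WRKY factors act at the crossing of stress and defence signalling, TCH2 encodes a calmodulin-like protein, and TCH4 encodes a xyloglucan endotransglucosylase, an enzyme that remodels the cell wall.

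The fifth rosette leaf was sampled at day 21 from plants grown at 22 °C and 50% humidity with 16 h of light, and polyadenylated RNA was sequenced in 15 libraries. All 4 groups carry a transgene that expresses DME from the AGL61 promoter, a promoter known for the central cell of the embryo sac and not for leaf cells. The WT group (4 libraries, A to D) is a segregant with all 4 demethylase genes intact, the dme group (4 libraries, A to D) carries dme-2, the rdd group (4 libraries, A to D) carries ros1-3, dml2-1 and dml3-1, and the drdd group (3 libraries, B to D) carries dme-2, ros1-3, dml2-1 and dml3-1. DME, ROS1, DML2 and DML3 encode DNA glycosylases that cut methylated cytosine out of DNA. The labels name no touch or cold treatment and no hour of harvest. They also do not say whether libraries of a group came from separate plants, so the spread behind each p-value may be technical in part. In bulk leaf RNA, a change in the share of cells of one type and a change of RNA per cell cannot be told apart.

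The 250 bases upstream of the RefSeq transcription start are shown for CBF2, ZAT12 and TCH2, whose windows hold the CGCG core with a following T (CGCGT, searched on both strands), and for CBF3 and TCH4, the genes with the most distinct patterns below, whose windows hold no match. Capitals mark the matches. The sequences and coordinates are those of RefSeq assembly TAIR10.1. The build behind the counts is not given in the sources used here, but all 37051 nuclear identifiers of the counts occur in that annotation. The windows run 5′ to 3′ on the strand of the gene and lie at chr4:13016236-13016485 (minus strand, CBF2), chr5:24102564-24102813 (plus strand, ZAT12), chr5:14999620-14999869 (minus strand, TCH2), chr4:13019401-13019650 (minus strand, CBF3) and chr5:23308681-23308930 (minus strand, TCH4).
CBF2: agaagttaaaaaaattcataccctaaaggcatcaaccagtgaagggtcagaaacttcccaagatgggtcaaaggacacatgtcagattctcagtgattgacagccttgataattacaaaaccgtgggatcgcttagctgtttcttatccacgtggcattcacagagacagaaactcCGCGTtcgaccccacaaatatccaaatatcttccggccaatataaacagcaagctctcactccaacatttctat
ZAT12: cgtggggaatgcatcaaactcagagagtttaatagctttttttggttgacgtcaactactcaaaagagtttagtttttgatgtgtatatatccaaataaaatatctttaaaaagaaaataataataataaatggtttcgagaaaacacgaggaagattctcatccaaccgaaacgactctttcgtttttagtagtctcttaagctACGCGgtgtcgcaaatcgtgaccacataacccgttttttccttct
TCH2: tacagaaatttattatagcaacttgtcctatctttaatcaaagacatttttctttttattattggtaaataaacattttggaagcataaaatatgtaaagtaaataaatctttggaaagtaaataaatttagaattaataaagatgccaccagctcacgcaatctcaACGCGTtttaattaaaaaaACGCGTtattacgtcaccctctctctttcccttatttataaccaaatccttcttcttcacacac
CBF3: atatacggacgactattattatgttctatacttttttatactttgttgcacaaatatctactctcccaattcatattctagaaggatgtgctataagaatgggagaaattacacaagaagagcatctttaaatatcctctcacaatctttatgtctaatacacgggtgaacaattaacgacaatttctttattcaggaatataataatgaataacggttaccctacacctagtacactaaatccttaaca
TCH4: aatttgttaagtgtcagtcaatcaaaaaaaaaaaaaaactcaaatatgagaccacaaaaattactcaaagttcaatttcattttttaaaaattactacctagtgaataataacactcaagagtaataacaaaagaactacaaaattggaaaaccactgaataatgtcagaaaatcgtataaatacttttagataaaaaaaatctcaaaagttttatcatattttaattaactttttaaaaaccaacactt

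The CBF2 match lies 74 to 70 bases before the start, the ZAT12 match, on the other strand and so read as ACGCG, 45 to 41 bases before it, and TCH2 holds the palindrome ACGCGT in 2 places, so that each is matched on both strands. CGCGT occurred in 3 of the 10 windows and in 6.87% of 27443 windows of protein-coding genes. The other motifs searched were CCGAC, the core of the element that CBF proteins bind, in ZAT10 and ERF5 (12% of all windows), the G-box core CACGTG in CBF2 (6.49%), the W-box core TTGAC in CBF2, ZAT10, ZAT12, ERF5, WRKY40 and TCH4 (44.9%), and GCCGCC, the GCC box, in ZAT10 (1.87%). No CBF window held CCGAC. The windows of CBF1, CBF3 and ERF6 held none of the 5 motifs. Such matches describe letters in these windows and are not binding sites shown to be used.

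Of the 10 genes, 7 had 1 exon in every annotated transcript, against 18.9% of 27444 protein-coding genes. WRKY40 had 4 exons, TCH4 had 2 and TCH2 had 1 or 2. CBF2, CBF3 and CBF1 follow each other on chromosome 4, where they lie between positions 13015250 and 13022996. Reads that match more than 1 of these closely related genes could be counted for the wrong one. The same could hold for the related genes ERF5 and ERF6. Levels of these genes are uncertain to that extent, which was not tested. The noncoding AT4G07385, which overlaps CBF3 on the other strand, reached at most 0.583 CPM (counts per 1000000 counts of the library, with totals scaled by edgeR's TMM factors) and AT5G37760, which overlaps TCH2, at most 0.388 CPM. AT1G80850 overlaps WRKY40 on the other strand and stood at 22.8 to 77.1 CPM, highest in rdd C. The strand setting of the counting is not given in the sources used here, so reads shared between these partners cannot be told apart. No member lies beside a mutated demethylase gene: 1107 annotated genes separate CBF1 from DML3, and every other member on the same chromosome as a demethylase gene is farther away.

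Libraries held 8730340 (WT B) to 23302135 (rdd D) counts assigned to genes. Transcripts of DML2, ROS1 and DML3 were lower in rdd than in WT, in the direction of the labels. DML2 stood at 21.3 to 31.9 CPM in WT and 5.30 to 10.1 CPM in rdd. ROS1 stood at 81.1 ± 10.8 CPM in WT and 58.5 ± 6.73 in rdd, and DML3 at 6.51 ± 1.39 and 3.22 ± 0.867 (SD, n = 4 each). In drdd the means were 8.99 CPM for DML2, 61.8 CPM for ROS1 and 3.13 CPM for DML3. DME transcript stood at 76.7 to 101 CPM in WT and 54.8 to 74.6 CPM in dme. It stood at 74.7 to 106 CPM in rdd and 68.7 to 77.6 CPM in drdd, so drdd overlapped with WT and rdd. A transcript from the transgene or from the dme-2 allele would be counted with DME. As to leaf identity, the summed CPM of 7 mesophyll markers was 37730 to 65767 over the libraries, while the 4 shoot meristem markers together stayed at or under 0.196 CPM, the 3 root markers at or under 0.361 CPM and the 3 flower markers at or under 0.967 CPM.

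A pair of libraries of different genotype stood apart for these genes, and the comparisons of the 10 genes are given with and without them. The library dme C or drdd C was the highest of the 15 for each of the 10 genes: dme C for 7 and drdd C for 3. They were the 2 highest libraries for all members except CBF3, that is for 9 of 10, whereas over all tested genes the same holds for 797 of 18598 (4.29%). The 10 genes were chosen with earlier results of these data known, so that contrast is a description and no independent support. Against the median of the other libraries of its own genotype, dme C was higher by a median of 17.2-fold over the 10 genes, from 0.931-fold for CBF3 to 89.7-fold for TCH4. For drdd C the median was 4.67-fold, from 2.28-fold for CBF3 to 12.7-fold for TCH4.

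The other libraries did not lack variation. WT A was the highest WT library for 5 of the 10 genes and rdd B the highest rdd library for 6, with median folds over their own genotype of 1.84 and 1.3. On several measures of depth and counting the pair lay within the range of the rest: dme C held 12178873 counts and drdd C 9639591, with 1.79% and 1.59% of reads meeting no gene (range 1.54% to 2.17%) and 23.3% and 22.7% of counts in the 100 most abundant genes (range 22.0% to 27.0%). The share of reads meeting several genes was 0.117% in dme C, the lowest of the 15 libraries (the other 14 had 0.132% to 0.176%), and 0.133% in drdd C. The part of depth, counting or RNA quality in the high levels was not tested. Over all tested genes dme C was the highest library for 13.7%, WT A for 12.3% and drdd C for 9.56%.

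**Figure D1:**
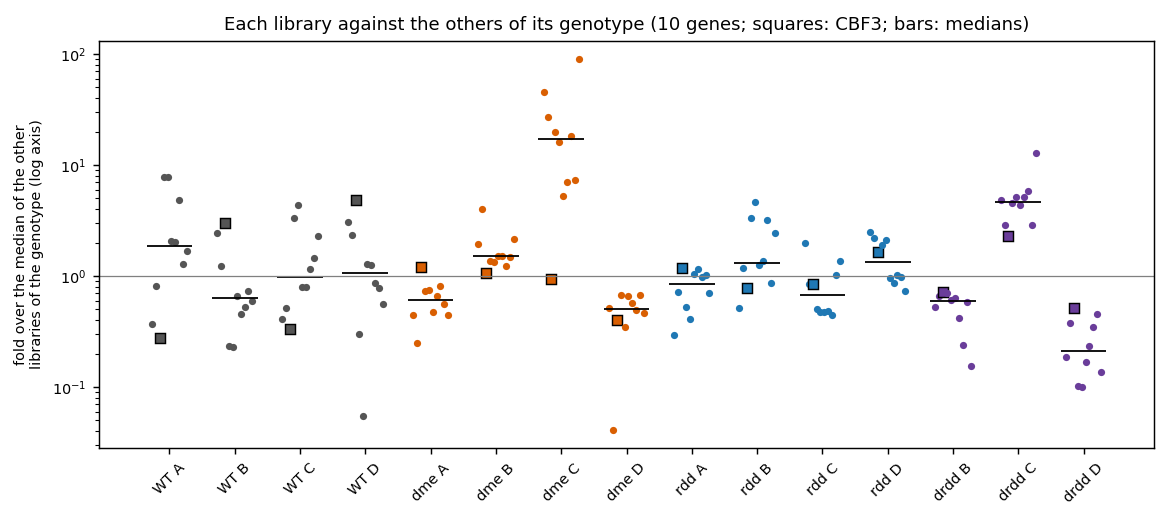
Fold of each library over the median of the other libraries of its genotype (vertical log axis) for the 10 genes, with a point per gene, squares for CBF3 and bars for the median of the 10. The median stands at 17.2-fold in dme C and 4.67-fold in drdd C, and the CBF3 square of dme C lies at 0.931.

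CBF1, CBF2 and CBF3 encode closely related AP2-type activators that plants raise in the cold. CBF1 stood at 0.972, 2.62, 1.07 and 3.29 CPM in WT A to D, at 0.583, 1.31, 30.4 and 0.674 in dme A to D, at 0.180, 0.313, 0.615 and 0.775 in rdd A to D, and at 7.13, 24.4 and 2.95 in drdd B to D. Every rdd library was below every WT library and every drdd library, while 3 of the 4 dme libraries lay within or below the range of WT. By genotype medians the order was drdd (7.13), WT (1.85), dme (0.990) and rdd (0.464). Each genotype overlapped with its neighbour in that order.

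CBF2 stood at 2.59, 3.19, 1.65 and 6.09 CPM in WT A to D, at 1.02, 4.08, 27.7 and 0.168 in dme A to D, at 1.35, 1.88, 1.58 and 3.49 in rdd A to D, and at 15.3, 36.4 and 9.72 in drdd B to D. All 3 drdd libraries were above every WT and every rdd library. The dme libraries spanned the whole range from the lowest of the 15 (dme D, 2 counts) to the second highest (dme C, 327 counts).

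CBF3 stood at 2.75, 9.91, 3.30 and 16.0 CPM in WT A to D, at 4.45, 4.0, 3.72 and 1.60 in dme A to D, at 2.17, 1.67, 1.85 and 3.01 in rdd A to D, and at 13.4, 27.0 and 10.3 in drdd B to D. Here dme C was only the third highest of the 4 dme libraries, although the neighbours CBF1 and CBF2 were at their genotype's maximum in the same library. The drdd libraries were all above every dme and every rdd library and overlapped with WT, in which B and D were high and A and C low. The mean was 8.0 ± 6.27 CPM in WT (SD, n = 4), 3.44 ± 1.26 in dme (n = 4), 2.17 ± 0.596 in rdd (n = 4) and 16.9 ± 8.89 in drdd (n = 3).

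CBF3 was the only one of the 10 genes called, with all 15 libraries, in any comparison with edgeR's quasi-likelihood test at a Benjamini-Hochberg adjusted p under 0.05 over all tested genes, here referred to as called. Against rdd, the drdd libraries had more CBF3 (log2 fold change 2.92, SE 0.57, adjusted p = 0.0420, edgeR) and so they had against dme (2.29, SE 0.55, adjusted p = 0.0478), each time in 3 of 3 libraries. CBF3 was also called over any difference among the 4 genotypes (adjusted p = 0.0323). Without dme C and drdd C the log2 fold changes were 2.42 against rdd (adjusted p = 0.180) and 1.80 against dme (adjusted p = 0.311), and CBF3 was no longer called. Over 21 alternatives the log2 fold change against rdd was 2.42 to 3.17 and adjusted p ranged up to 0.222; 12 ended the call, among them leaving out WT B, dme A, dme B, any rdd library, drdd B or drdd C. Against dme it was 1.77 to 2.52 and adjusted p ranged up to 0.311; 15 of 21 ended the call, among them leaving out WT B, any dme or rdd library, drdd B or drdd C. The call over any genotype was lost under 9 of 20.

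The difference between drdd and rdd, minus that between dme and WT, measures whether loss of DME acts differently with and without the other 3 enzymes. For CBF3 it was 4.13 on the log2 scale (SE 0.77, adjusted p = 0.0773, edgeR), above the threshold, and it was 3.65 without dme C and drdd C (adjusted p = 0.336). Its parts were the higher level of drdd over rdd and a lower fitted level in dme than in WT (log2 fold change −1.21, SE 0.52, adjusted p = 0.974).

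**Figure D2:**
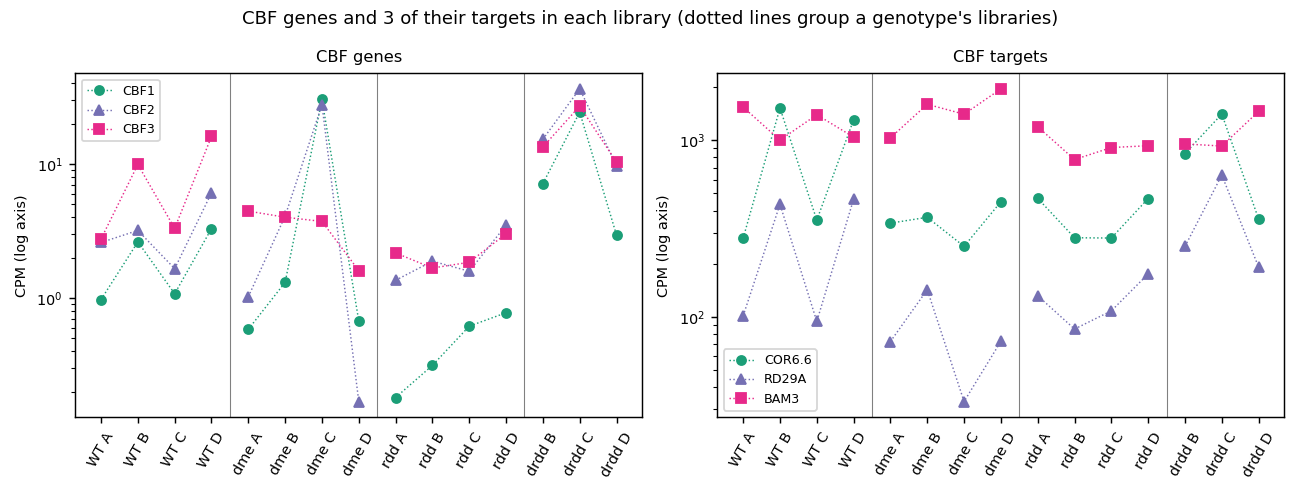
CPM on a log axis in each of the 15 libraries for CBF1, CBF2 and CBF3 (left) and for the CBF targets COR6.6, RD29A and BAM3 (right), with dotted lines joining libraries of a genotype. In dme C, CBF1 and CBF2 stand at 30.4 and 27.7 CPM and CBF3 at 3.72, and COR6.6 and RD29A are the lowest of the 4 dme libraries.

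ZAT10 and ZAT12 encode zinc finger proteins of salt, cold and oxidative stress, and ZAT10 is a transcriptional repressor. ZAT10 stood at 35.6, 3.65, 15.4 and 4.61 CPM in WT A to D, at 17.4, 23.8, 342 and 16.1 in dme A to D, at 5.32, 17.8, 5.10 and 10.1 in rdd A to D, and at 67.5, 180.5 and 12.7 in drdd B to D. Besides dme C and drdd C, drdd B was above the other 12 libraries, and drdd D lay within the WT range. ZAT12 stood at 7.94, 1.03, 4.46 and 0.247 CPM in WT A to D, at 4.66, 6.29, 75.1 and 2.19 in dme A to D, at 0.993, 5.33, 1.14 and 2.41 in rdd A to D, and at 21.7, 67.2 and 4.42 in drdd B to D. Its highest library was 304-fold above its lowest (WT D, 3 counts), the widest range of the 10 genes, and the order of libraries at the top was the same as for ZAT10.

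ERF5 and ERF6 encode related ethylene response factors that restrain leaf growth and act in defence. ERF5 stood at 10.7, 4.33, 5.12 and 6.50 CPM in WT A to D, at 7.58, 16.0, 55.5 and 10.5 in dme A to D, at 4.78, 5.75, 2.28 and 4.61 in rdd A to D, and at 22.6, 64.5 and 7.27 in drdd B to D. Every drdd library was above every rdd library, but drdd D was below WT A. ERF6 stood at 7.70, 2.16, 3.8 and 4.77 CPM in WT A to D, at 8.02, 12.1, 55.8 and 6.91 in dme A to D, at 4.87, 5.64, 2.37 and 4.18 in rdd A to D, and at 12.9, 53.5 and 7.76 in drdd B to D. All drdd libraries were above all WT libraries, narrowly so in drdd D against WT A (7.76 and 7.70 CPM), and all were above rdd. These were among the genes with a narrower range over the 15 libraries, 28.2-fold for ERF5 and 25.8-fold for ERF6.

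WRKY40 encodes a repressor of defence genes that is itself raised by many stresses. It stood at 22.8, 2.85, 5.45 and 4.69 CPM in WT A to D, at 19.0, 23.6, 350.0 and 11.7 in dme A to D, at 5.14, 16.4, 2.37 and 5.30 in rdd A to D, and at 15.8, 111 and 22.1 in drdd B to D. No genotype was set apart from another without overlap. WT A was at 4.87-fold the median of the other WT libraries, and rdd B at 3.19-fold that of the other rdd libraries.

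TCH2, which encodes the calmodulin-like protein CML24, was the steadiest of the 10 outside dme C and drdd C. It stood at 60.2, 44.2, 68.1 and 46.7 CPM in WT A to D, at 45.8, 81.8, 404 and 54.8 in dme A to D, at 77.4, 66.9, 77.6 and 76.6 in rdd A to D, and at 99.3, 257 and 80.7 in drdd B to D. All 3 drdd libraries were above all WT and all rdd libraries. Its closest relative CML23 was also highest in drdd C (44.3 CPM) and dme C (32.5 CPM), with 1.46 to 15 CPM in the other 13 libraries.

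TCH4 had the pattern least like the rest outside the pair of high libraries. It stood at 9.48, 5.70, 13.1 and 5.35 CPM in WT A to D, at 4.81, 10.9, 453 and 5.05 in dme A to D, at 22.7, 59.4, 32.7 and 24.2 in rdd A to D, and at 17.9, 213 and 15.6 in drdd B to D. All 4 rdd libraries were above all WT libraries, and drdd B and D lay between the ranges of WT and rdd. The xyloglucan enzyme gene next to it on the chromosome, XTH25, was at 4.40 CPM in dme C and 3.14 CPM in drdd C, with its highest value in rdd B (10.3 CPM). XTH23 reached 3.64 CPM in dme C and stood at 0.491 CPM in drdd C.

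**Figure D3:**
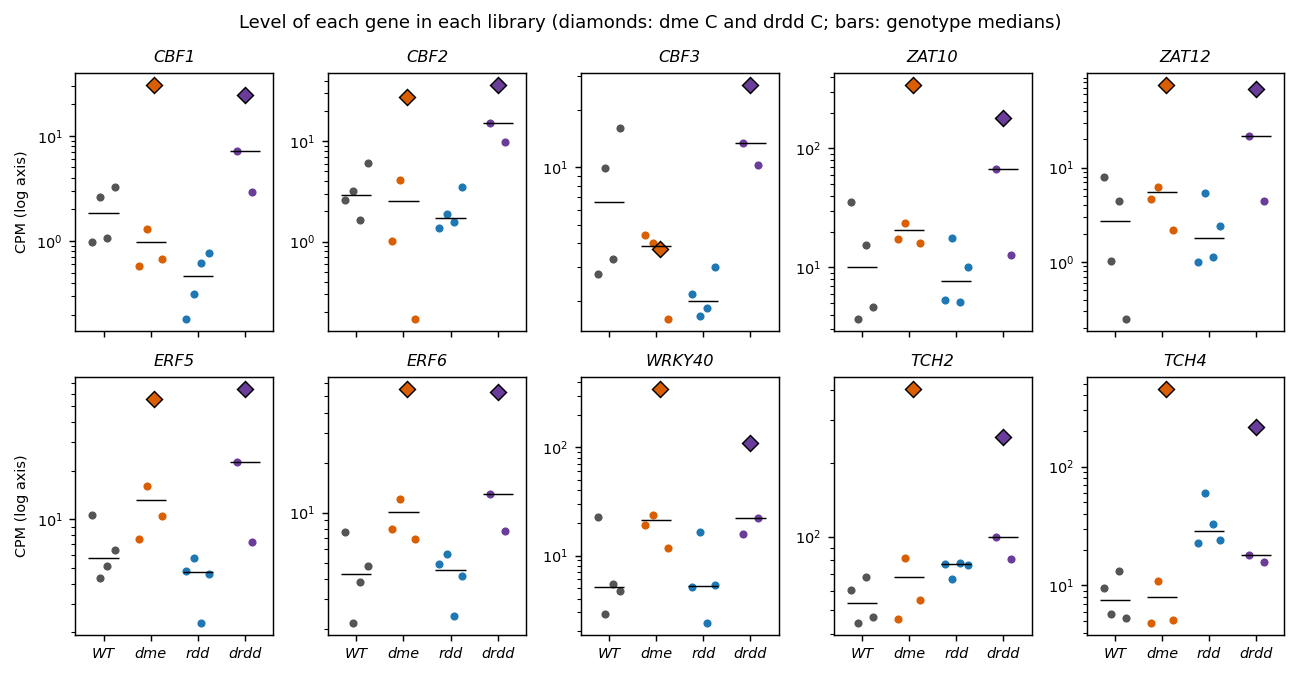
CPM of each of the 10 genes (one panel each, log axis) in the libraries of WT, dme, rdd and drdd, with diamonds for dme C and drdd C, circles for the other 13 libraries and bars for genotype medians. Diamonds are the 2 highest points in every panel except that of CBF3, where dme C lies at 3.72 CPM.

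In dme against WT, 0 of the 10 genes were called, where 0.0108% of all tested genes were, and none with DESeq2 (0.046%) or without dme C and drdd C (0.0107%). In every comparison DESeq2 gave no adjusted p for WRKY40 and TCH4, so its counts cover the other members only. The median log2 fold change was 2.1 (−0.01 over all tested genes), and 8 of the 10 had an unadjusted p under 0.05, as did 4.52% of all tested genes: ZAT10, ZAT12, ERF5, ERF6, WRKY40, TCH2 and TCH4 with higher and CBF3 with lower fitted means. The largest was that of TCH4 (3.81, SE 1.46, adjusted p = 0.974, edgeR). These values rested on dme C: without it the median was 0.26, 6 of 10 were positive, and CBF1, CBF2 and TCH4 changed sign, to −1.19, −0.93 and −0.28. No member separated the dme from the WT libraries without overlap (0.774% of tested genes did so higher in dme and 1.4% lower). In the authors' deposited table of dme against WT, 0 of 10 were called (0.0509% of its genes), and 6 of the 10 (CBF1, ZAT10, ZAT12, WRKY40, TCH2 and TCH4) carry no p-value.

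In rdd against WT, 0 of the 10 were called by edgeR (1.08% of tested genes), 1 had an unadjusted p under 0.05 (16% of tested genes) and 1 was called by DESeq2 (2.97%), CBF3 both times. DESeq2 gave no adjusted p for TCH4 here. The median log2 fold change was −0.57. The fitted log2 fold change of CBF3 was −1.84 (SE 0.54, adjusted p = 0.135, edgeR). That of CBF1 was −1.94 (SE 1.35, adjusted p = 0.487). They were −1.85 (adjusted p = 0.104) and −1.97 (adjusted p = 0.0922) without dme C and drdd C. TCH4 was the one with a large positive value, 2.03 (SE 1.38, adjusted p = 0.477, 95% interval −1.01 to 5.07). Groups did not overlap for TCH4, higher in rdd (5.11% of tested genes), and for CBF1, lower in rdd (5.16%).

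The adjusted p of TCH4 changed with libraries of genotypes outside that comparison. One estimate of spread served all 4 genotypes. With dme C and drdd C left out, an alternative chosen after seeing the data, the biological coefficient of variation of TCH4 fell by 3.00-fold, from 1.13 to 0.377. The log2 fold change stayed at 2.03 (SE 0.40) and TCH4 was called (adjusted p = 0.0272, with 1.7% of tested genes called), higher in 4 of 4 rdd libraries. A fit of WT and rdd alone gave adjusted p = 0.0640, and the range over the alternatives with an adjusted p was 0.0272 to 0.643. The authors' deposited table of rdd against WT called TCH4 (log2 fold change 2.04, adjusted p = 6.57e-06), CBF1 (−2.02, adjusted p = 0.0412) and CBF3 (−1.87, adjusted p = 0.0173), 3 of 10 where 4.7% of its genes were called.

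In drdd against WT, 0 of the 10 were called by edgeR (1.35% of tested genes), 0 by DESeq2 (3.1%) and 0 without dme C and drdd C (0.736%), although all 10 fitted means were higher in drdd, with a median log2 fold change of 2.48 and 6 of 10 at an unadjusted p under 0.05 (14.2% of tested genes). Without drdd C all 10 remained positive, with a median of 1.16. CBF2, ERF6, TCH2 and TCH4 were higher in every drdd library than in any WT library, which held in that direction for 6.64% of tested genes, and none was lower in every library (6.46%). CBF2 had a log2 fold change of 2.59 (SE 1.06, adjusted p = 0.297, edgeR) and, without both high libraries, of 1.89 (adjusted p = 0.398). The authors' deposited table of drdd against WT called 5 of 10 (3.38% of its genes), all higher in drdd: CBF1, CBF2, ERF5, ERF6 and TCH2, with CBF2 at a log2 fold change of 2.59 and adjusted p = 0.000102. TCH4 carries no p-value in that table.

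In drdd against rdd, 1 of the 10 was called by edgeR, CBF3, where 0.468% of tested genes were, and 3 by DESeq2 (1.78%), CBF1, CBF3 and ERF5. Without dme C and drdd C it was 0 (0.192%). All 10 fitted means were higher in drdd, with a median log2 fold change of 2.89, and 8 of 10 had an unadjusted p under 0.05 (11.3% of tested genes). CBF1 had the largest value, 4.47 (SE 1.37, adjusted p = 0.220), and without dme C and drdd C it was 3.33 with a smaller SE of 0.61 (adjusted p = 0.0524). Without dme C alone CBF1 was called (adjusted p = 0.0174), in a fit whose share of all tested genes called is not given here. Without drdd C the median was 1.94 and TCH4 changed sign, from 1.24 to −1.04. Groups did not overlap for CBF1, CBF2, CBF3, ERF5, ERF6 and TCH2, all higher in drdd (5.8% of tested genes), and for none in the other direction (6.34%). The authors' deposited table of drdd against rdd called 7 of 10 (3.12% of its genes), all higher in drdd, namely CBF1, CBF2, CBF3, ZAT10, ZAT12, ERF5 and ERF6. Here, too, TCH4 carries no p-value.

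In drdd against dme, 1 of the 10 was called, CBF3, where 2.26% of tested genes were. It was also the one with an unadjusted p under 0.05 (15.9% of tested genes) and the one called by DESeq2 (4.83%), and 0 were called without dme C and drdd C (0.512%). CBF3 separated the groups without overlap, higher in drdd (6.84% of tested genes), and no member did so in the other direction (7.59%). The median log2 fold change was 0.36, and which genotype was higher depended on the pair of high libraries: without drdd C the median was −0.74, without dme C it was 2.23 with CBF1 (3.71, adjusted p = 0.0284, edgeR) and CBF2 (3.51, adjusted p = 0.0477) called, and without both it was 1.17 with 10 of 10 positive. The share of all tested genes called without dme C alone is not given here. The interaction called 0 of 10 by edgeR (0.108% of tested genes), with 1 at an unadjusted p under 0.05 (9.61%), 1 called by DESeq2 (0.983%), and 0 without dme C and drdd C (0.0373%). The test over any genotype called 1 of 10 (2.24%), with 8 at an unadjusted p under 0.05 (17.9%), 4 called by DESeq2 (7.82%), and 2 without dme C and drdd C, CBF1 and TCH4 (1.65%). These comparisons share libraries, so their results are not independent of each other.

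**Figure D4:**
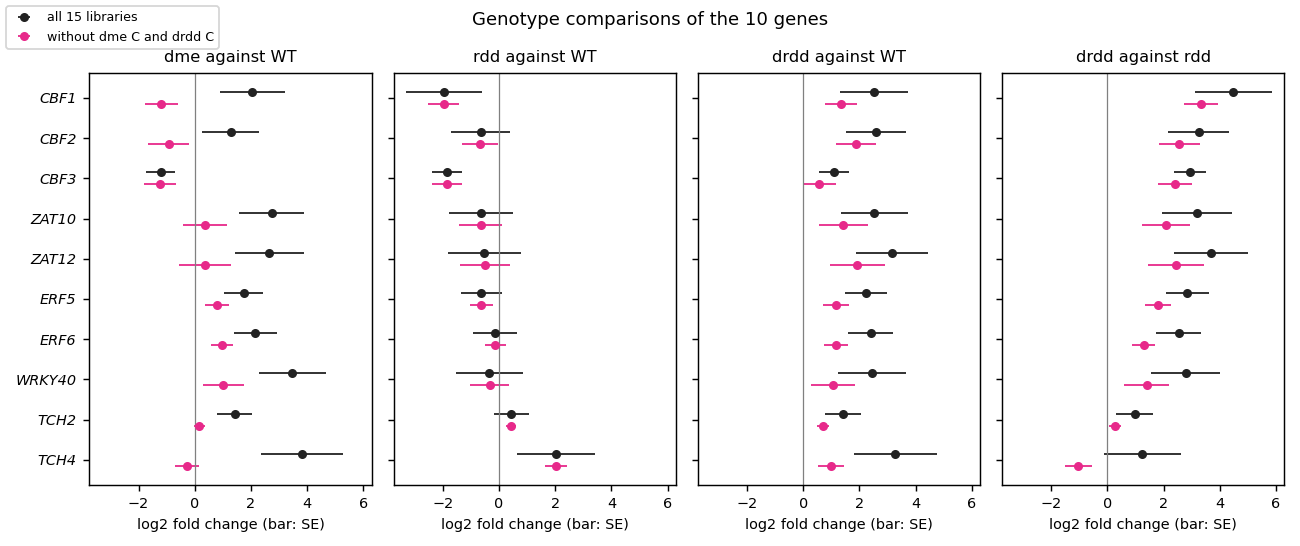
Log2 fold change (edgeR, bar: SE) of each gene in dme, rdd and drdd against WT and in drdd against rdd, from all 15 libraries (black) and without dme C and drdd C (pink). In dme against WT the TCH4 point moves from 3.81 to −0.28, whereas in rdd against WT it stays at 2.03 with a smaller SE.

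The spread between libraries of one genotype was wide for every member. The within-genotype SD of log2 CPM lay at the 95.04 percentile of all tested genes for CBF3 and at the 99.9 percentile for TCH4, with the other 8 in between. Without dme C and drdd C the biological coefficient of variation fell for 9 of the 10, by 3.00-fold for TCH2 as for TCH4, whereas for CBF3 it was 0.496 before and 0.497 after.

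Described over the 15 libraries on log2(CPM + 1), the 45 pairs of members had a median Pearson r of 0.77 (Spearman rho 0.50), and a median r of 0.31 (rho 0.24) without dme C and drdd C. The points share libraries and their depth. Some pairs stayed high without them. ZAT10 and ZAT12 had r of 0.98 over 15 libraries and 0.96 over the other 13, ERF5 and ERF6 had 0.97 and 0.92, and CBF1 and CBF2 had 0.93 and 0.85. CBF1 and CBF3 had the higher r without the pair of libraries, 0.66 over 15 and 0.91 over 13. Pairs of CBF3 with the 7 genes outside the CBF family had r of 0.08 (TCH4) to 0.45 (ERF5).

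By the rule of highest Pearson r to the mean standardised level of the members over the 15 libraries, the most similar genes were AT1G07135 (r 0.98, rho 0.91), AT1G32928, the mitochondrial dicarboxylate carrier gene DIC2, the nudix hydrolase genes NUDT21 and NUDT4, AT3G56880, AT5G21960, the RING-type E3 ligase gene RDUF1, the AP2-type factor gene ORA47 and the deadenylase gene CAF1a (r 0.97, rho 0.80). A Pearson r over 0.9 was reached by 76 tested genes that are not members. NUDT4 stood at 352 CPM in dme C and 171 CPM in drdd C, and at 3.16 to 20.0 CPM in the other libraries. ORA47 stood at 241 CPM in dme C and 199 CPM in drdd C, followed by drdd B (29.0 CPM) and dme B (17.3 CPM). The genes most like CBF3 were others, AT5G66420, AT1G11360, FKF1, which encodes a blue light receptor of the flowering pathway, BPC6 and HB6, with r of 0.85 to 0.87.

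Of the 27 other rapid stress transcription factors listed, 23 were tested and 0 were called by edgeR in any comparison. At an unadjusted p under 0.05 there were 6 in dme against WT (4.52% of all tested genes) and 8 in drdd against rdd (11.3%), and DESeq2 called 0 (0.046%) and 2 (1.78%). DESeq2 also called 2 of these factors in drdd against WT (3.1%) and 7 over any genotype (7.82%). Their median log2 fold change was 1.19 in dme against WT (−0.01 over all tested genes), −0.73 in rdd against WT and 1.23 in drdd against rdd. It was 0.20, −0.71 and 1.07 without dme C and drdd C, over the 22 genes then tested. The highest library was dme C for 16 of the 23, and dme C and drdd C were the top pair for 12. This list, too, was chosen with earlier results of these data known. The most abundant was SZF1, a zinc finger gene of the early salt and defence response, at 885 CPM in dme C, 412 CPM in drdd C and 19.9 to 123 CPM in the other libraries. MYB44, a factor of abscisic acid and stress signalling, had its highest values there as well, 222 CPM in dme C and 163 CPM in drdd C.

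Relatives of the members did not all follow them. ERF1A lies next to ERF6 in the row of protein-coding genes of chromosome 4; it stood at 122 CPM in dme C and 44.2 CPM in drdd C, with WT A in between at 55.2 CPM. ERF2 stood at 201 CPM in dme C and 134 CPM in WT A, but at 46.9 CPM in drdd C, below drdd B (64.7 CPM). WRKY18, which acts with WRKY40, stood at 59.4 CPM in dme C and 16.1 CPM in drdd C, the latter below WT A, WT C and every dme library, and WRKY60 was highest in WT A (15.3 CPM) and stood at 5.93 CPM in dme C and 1.18 CPM in drdd C. The CBF relatives CBF4 and DDF1 had 0 counts in all WT and rdd libraries, 20 and 29 counts in dme C, and 10 and 8 counts in drdd C. DDF2 had 0 counts in every library.

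Of 17 other rapid signalling genes, 16 were tested and 0 were called by edgeR in any comparison. At an unadjusted p under 0.05 there were 7 in dme against WT (4.52% of all tested genes) and 7 in drdd against rdd (11.3%), and DESeq2 called 0 (0.046%) and 1 (1.78%). Over any genotype DESeq2 called 4 (7.82%). These genes had a median log2 fold change of 2.03 in dme against WT and 1.88 in drdd against rdd, and of 0.12 and 0.86 without dme C and drdd C. The top pair was dme C and drdd C for 10 of the 16, in a list also chosen with earlier results of these data known. DIC2 stood at 464 CPM in dme C, 338 CPM in drdd C and 7.40 to 58.4 CPM in the other libraries. RBOHD, the NADPH oxidase gene of stress and defence signalling, stood at 184 CPM in dme C and 63.3 CPM in drdd C, the lowest of the drdd libraries.

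Among 15 genes of touch sensing, other calmodulins and xyloglucan enzymes, 13 were tested. MSL10, a mechanosensitive channel gene, was called higher in drdd than in the rdd group, by 0.81 on the log2 scale (SE 0.15, adjusted p = 0.0308, edgeR), and than in dme, by 0.68 (SE 0.15, adjusted p = 0.0280). Its drdd libraries stood at 17.4, 20.6 and 19.4 CPM and the other 12 libraries at 8.99 to 14.4 CPM. Without dme C and drdd C these values were 0.76 (adjusted p = 0.0901) and 0.53 (adjusted p = 0.223), and 0 of the 13 genes were called. The highest library was dme C for 8 of the 13, but dme C and drdd C were the top pair for only 2. The median log2 fold change of the 13 was 0.17 in dme against WT and 0.18 in drdd against rdd. Without dme C and drdd C these medians were −0.05 and 0.06. The calmodulin-like gene TCH3, named after its values were seen, stood at 781 CPM in dme C, 592 CPM in WT A and 327 CPM in rdd B, against 232 CPM in drdd C.

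All 16 regulators of the CBF genes on the list were tested, and 1 was called: PIF4, a light and temperature responsive factor known to repress CBF genes in long days, was higher by 1.47 on the log2 scale in drdd compared with dme (SE 0.29, adjusted p = 0.0171, edgeR). Its highest library was drdd C (76.8 CPM), and without dme C and drdd C it was at 1.2 (adjusted p = 0.153). MYB15, a repressor of CBF genes named here after its values were seen, stood at 24.9 CPM in dme C and 3.83 CPM in drdd C and at no more than 1.67 CPM elsewhere. The median log2 fold change of the 16 regulators was between −0.12 and 0.07 in the 5 genotype comparisons.

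Of 13 CBF targets, 12 were tested and 0 were called by edgeR. In drdd against dme, 9 had an unadjusted p under 0.05 (15.9% of all tested genes) and DESeq2 called 4 (4.83%), whereas 0 were called without dme C and drdd C. The targets had median log2 fold changes of −0.96 in dme against WT, −0.49 in rdd against WT, 1.04 in drdd against rdd and 1.33 in drdd against dme. These were −1.04, −0.49, 0.28 and 0.76 without dme C and drdd C. The highest library was drdd C for 8 of the 12 and dme C for none. COR6.6, a cold-induced protective protein gene, stood at 279, 1524, 353 and 1307 CPM in WT A to D, at 339.5, 366, 251 and 449 in dme A to D, at 469, 281, 279.5 and 468 in rdd A to D, and at 842, 1409.7 and 358 in drdd B to D. Like CBF3 it was high in WT B, WT D and drdd C and not in dme C. The osmotic and cold stress gene RD29A, named after its values were seen, stood at 33.1 CPM in dme C, the lowest of the 15, and at 434 CPM in WT B, 464 CPM in WT D and 635 CPM in drdd C. BAM3, which encodes a chloroplast beta-amylase, did not follow: it stood at 929 CPM in drdd C and was highest in dme D (1958 CPM).

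As a description over the 15 libraries, the 12 targets had a median Pearson r of 0.69 with CBF3 (median rho 0.49), of 0.41 with CBF2 (0.40) and of 0.36 with CBF1 (0.30). Without dme C and drdd C the median r was 0.63 with CBF3, 0.44 with CBF2 and 0.54 with CBF1, and the median rho 0.42, 0.47 and 0.42. CBF3 was the closest of the CBF genes by r in both sets of libraries, and by rho only with all 15.

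Some clock genes and tissue markers were called in comparisons of the genotypes. The top pair was dme C and drdd C for 0 of the 10 clock genes. GI and PRR7, which act in the day and evening part of the clock, were called higher in drdd than in dme (log2 fold changes 1.79, SE 0.35, adjusted p = 0.0171, and 1.46, SE 0.32, adjusted p = 0.0329, edgeR), and both were highest in drdd C, at 49.0 and 66.9 CPM. ELF3, a component of the evening complex, was called lower in drdd than in dme (−0.39, SE 0.08, adjusted p = 0.0209). ELF3 was also called lower in drdd than in WT (−0.37, SE 0.08, adjusted p = 0.0344). Without dme C and drdd C none of the 10 clock genes was called in these comparisons, at −0.37 for ELF3 against dme (adjusted p = 0.139) and −0.37 against WT (adjusted p = 0.120), 1.18 for GI (adjusted p = 0.0908) and 1.05 for PRR7 (adjusted p = 0.0764). The morning gene LHY, named after its values were seen, stood at 103 and 95.9 CPM in WT A and C and at 24.9 and 14.9 CPM in WT B and D, the WT libraries with the higher CBF3. In dme C LHY stood at 33.9 CPM and in drdd C at 12.6 CPM, the lowest of the 15. The rdd libraries did not follow the WT pattern, with LHY at 21.7 to 36.4 CPM and CBF3 at only 1.67 to 3.01 CPM. The part of the time of day in the CBF levels was not tested.

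None of the 6 reference genes was called by edgeR or highest in dme C or drdd C. DESeq2 called 1 in drdd against WT, 1 in drdd against dme and 1 over any genotype. The most abundant, ACT2, stood at 618 ± 62.3 CPM in WT (SD, n = 4), 651 ± 14.3 in dme (n = 4), 535 ± 19.7 in rdd (n = 4) and 473 ± 71.8 in drdd (n = 3), with a log2 fold change of −0.46 in drdd against dme (SE 0.11, adjusted p = 0.0517, edgeR). ACT2 stood at 642 CPM in dme C and 438 CPM in drdd C. YLS8 stood at 73.3 CPM in dme C and 71.7 CPM in drdd C, in a range of 71.0 to 84.6 CPM. The summed CPM of the 7 mesophyll markers was 57590 in dme C (57590 to 65767 in dme) and 39805 in drdd C (37730 to 51070 in drdd, 49072 to 59115 in WT, 49717 to 59337 in rdd). Among them CA1, a carbonic anhydrase gene, was called lower in drdd than in dme, at a log2 fold change of −1.22 (SE 0.22, adjusted p = 0.0115), as was RCA, the Rubisco activase gene (−0.91, SE 0.22, adjusted p = 0.0448). They were at −1.07 (adjusted p = 0.114) and −0.80 (adjusted p = 0.162) without dme C and drdd C. RBCS1A and GAPA also had lower means in drdd (18666 and 2463 CPM) than in dme (27588 and 3562 CPM). PSBO1 was similar, at 4057 CPM in drdd and 4094 CPM in dme. LHCB1.3 and LHCB2.1 had higher means in drdd (8908 and 155 CPM) than in dme (7290 and 124 CPM). The sum of 5 xylem markers was 34.2 CPM in dme C, the lowest of the 15, and 163.8 CPM in drdd C, the highest. The sum of 4 phloem markers was 462 CPM in dme C and 553 CPM in drdd C, of 5 guard cell markers 130.1 and 101.7 CPM, and of 5 epidermis and trichome markers 374 and 498 CPM. FAMA, a guard cell factor gene, was called lower in drdd than in rdd (−1.12, SE 0.19, adjusted p = 0.0227), than in WT (−0.89, SE 0.19, adjusted p = 0.0306) and than in dme (−0.88, SE 0.19, adjusted p = 0.0264), and also without dme C and drdd C. Over all 5 guard cell markers the median log2 fold change was 0.03 in drdd against WT, −0.34 against rdd and −0.14 against dme. All 4 shoot meristem markers were at 0 counts in dme C and drdd C. The part of cell type makeup in the members' levels was not tested.

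**Figure D5:**
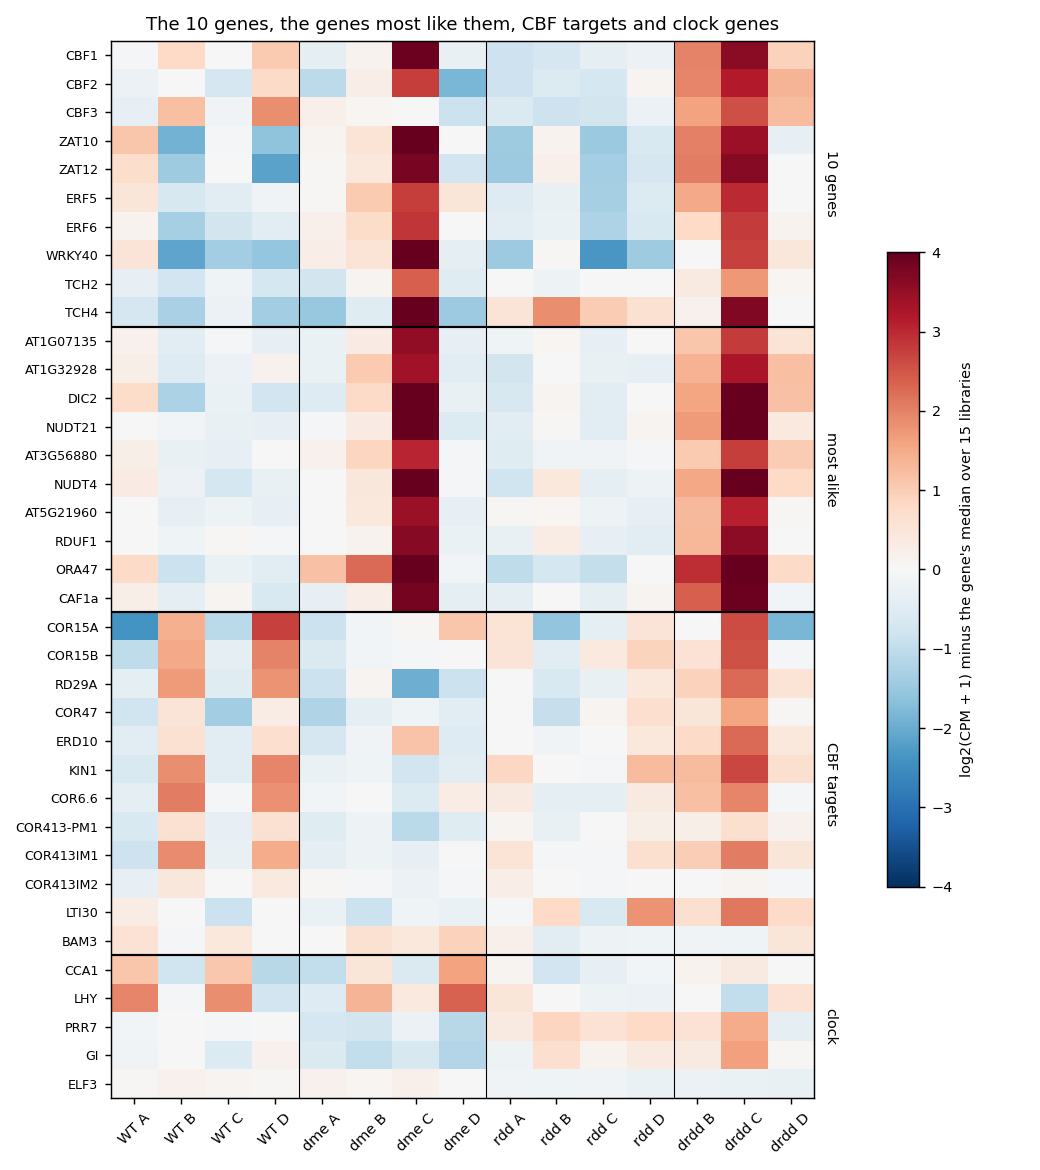
Log2(CPM + 1) minus the median of the gene over the 15 libraries (colour, red above and blue below) for the 10 genes, the 10 genes most like them, the 12 tested CBF targets and 5 clock genes, with libraries in columns. Colours end at 4 and −4. The dme C and drdd C columns are both red for 9 of the 10 genes and for the 10 most similar ones, and most CBF targets are red in WT B, WT D and drdd C.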

How the data were processed

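The authors deposited read counts per gene for each of the 15 libraries; per the submitters' processing notes, FastQC, Trim Galore, STAR and HTSeq were used. Settings, the annotation, the genome build and strand handling are not given in those sources. They also deposited DESeq2 tables for 4 comparisons, which per the file headers hold a mean signal (counts divided by size factors), a log2 fold change with its SE, a Wald score, and raw and adjusted p-values.

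Counts were analysed with edgeR 4.0.16 in R 4.3.3. The 5 summary lines that name no gene were left out (1.54% to 2.17% of reads met no gene, 0.117% to 0.176% several). filterByExpr with a minimum count of 10 kept 18598 of 37336 genes, libraries were scaled by TMM (0.953 to 1.09), and a quasi-likelihood model with robust dispersions was fitted over all libraries with 1 mean per genotype (11 residual degrees of freedom). Adjusted p-values are Benjamini-Hochberg values over all tested genes, with a threshold of 0.05. CPM values are counts per 1000000 counts of the TMM-scaled library total, correlations use a pseudocount of 1, and folds of a library over its genotype use the median of the other libraries. Alternatives were RLE size factors, no filter, DESeq2 1.42.0, only the genotypes compared, a replicate block, and each library left out. Leaving out dme C and drdd C together was added after the data were seen. The test was checked on simulated counts.

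The 10 genes and all gene lists were chosen with earlier results of these data known. Named were the 10 genes, the mutated genes, up to 4 called genes per list and comparison (else the 2 of highest mean CPM), the 10 most similar genes, and relatives of the members; others are marked. Motifs were searched in RefSeq TAIR10.1.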

Additional observations from a re-analysis of the deposited data

Results flagged for a closer look

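Within a genotype of 4 libraries, a library was marked where its gap to the nearest other library, as a share of the genotype's range in CPM, passed Dixon's 95% critical value. This was tested for the 10 genes in WT, dme and rdd, 30 groups, of which 10 were marked. Chance marks about 1 in 20 groups where values are normally distributed. That was not checked for these CPM values, so the chance rate here is not known. In 8 of these dme C was the high library, at 30.4 CPM for CBF1 (next highest dme library 1.31), 27.7 CPM for CBF2 (4.08), 342 CPM for ZAT10 (23.8), 75.1 CPM for ZAT12 (6.29), 55.8 CPM for ERF6 (12.1), 350.0 CPM for WRKY40 (23.6), 404 CPM for TCH2 (81.8) and 453 CPM for TCH4 (10.9). The 8 marks come from one library and are not independent. ERF5 and CBF3 were not marked in dme. The others were WT A for WRKY40, high at 22.8 CPM (next 5.45), and rdd B for TCH2, low at 66.9 CPM (next 76.6). The drdd group has 3 libraries and was not tested.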

How the results depend on the processing

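The number of the 10 genes called was 0 in dme against WT and in drdd against WT under every alternative. The main fit called 0.0108% and 1.35% of all tested genes there. In rdd against WT it was 0 (1.08% of tested genes), and 1 with DESeq2 (CBF3, 2.97%) and 1 without dme C and drdd C (TCH4, 1.7%). DESeq2 gave no adjusted p for WRKY40 and TCH4 in any comparison. In drdd against rdd it was 1 (0.468%), and 0 without the count filter, 3 with DESeq2 (CBF1, CBF3, ERF5, 1.78%), 0 without dme C and drdd C (0.192%), and 0 to 2 with each library left out. In drdd against dme it was 1 (2.26%), and 0 without the filter, 0 with only the compared genotypes, 0 without dme C and drdd C (0.512%), and 0 to 2 with each library left out. For the interaction it was 0 (0.108%), 1 with DESeq2 (0.983%) and 0 to 1 with each library left out (1 without WT A and 1 without drdd D). Over any genotype it was 1 (2.24%), 4 with DESeq2 (7.82%), 2 without dme C and drdd C (1.65%), and 0 to 3 with each library left out. RLE size factors changed none of these counts. The cause of these changes was not tested. No share of all tested genes is given here for the other alternatives, so their counts stand without that background.

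Replicate letters do not pair the libraries by the labels. Deviations of libraries with the same letter in different genotypes had correlations of −0.51 to 0.50 (median −0.05, 8 of 21 over 0.1), against a median of 0.03 with different letters. With the replicate block the counts were 0 in drdd against rdd, 0 in drdd against dme and 0 over any genotype. With groups of 3 or 4 libraries and 2 to 20 counts in some libraries for CBF1 and CBF2, small differences were not detectable at this depth.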
